A study of Homo sapiens with 13 samples.

Results

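DNA-RNA hybrid peaks on human chromosome 17 are described here: every deposited peak whose chromosome is 17. Membership used no measured value, though this part was chosen with earlier results of these data known. The peaks number 935 of 12687 in the list for siREXO4 cells, 1297 of 20954 in that for siRNaseH1 cells and 358 of 4458 in that for siCtrl cells, counted over chromosomes 1 to 22 and X. All cells were U2OS, an established osteosarcoma line, transfected with siRNA: siREXO4 (labelled REXO4 knockdown), siRNaseH1 (labelled RNaseH1 knockdown) or the control siCtrl (labelled WT). DNA-RNA immunoprecipitation with sequencing (DRIP-seq) used the hybrid-binding antibody S9.6 in 3 libraries for each siRNA, and the 13 samples also include an input for each siRNA and an IgG library of siCtrl cells, which were not analysed here. The authors merged the 3 immunoprecipitated libraries of a group into 1 peak list, so values have no replicate error, no test between groups was possible, and intervals cover counting error only. The series asked whether REXO4 and RNaseH1 act on hybrids at the same places.

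A hybrid of nascent RNA and its template DNA, with the other DNA strand left single, is called an R-loop. R-loops form where RNA polymerase passes, often just after a start site, and G-rich RNA strands favour them. RNaseH1 degrades the RNA strand of such hybrids, and REXO4 belongs to the REXO group of exonuclease-domain proteins.

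The promoters of 5 genes at leading loci are printed to show the start-site DNA that their peaks overlap: HEXIM1 and SREBF1, which had peaks in all 3 lists, and PITPNA, NDEL1 and AP2B1, which had peaks in both knockdown lists and none in siCtrl. Each is a RefSeq window on GRCh38.p14, from 250 bases before an annotated start site to 50 after it, read on the strand of the gene, with runs of 4 or more G in capitals. HEXIM1 is chr17:45148225-45148524 on the plus strand, SREBF1 is chr17:17836937-17837236 on the minus strand, PITPNA is chr17:1562743-1563042 on the minus strand, NDEL1 is chr17:8435634-8435933 on the plus strand, and AP2B1 is chr17:35587072-35587371 on the plus strand.
HEXIM1: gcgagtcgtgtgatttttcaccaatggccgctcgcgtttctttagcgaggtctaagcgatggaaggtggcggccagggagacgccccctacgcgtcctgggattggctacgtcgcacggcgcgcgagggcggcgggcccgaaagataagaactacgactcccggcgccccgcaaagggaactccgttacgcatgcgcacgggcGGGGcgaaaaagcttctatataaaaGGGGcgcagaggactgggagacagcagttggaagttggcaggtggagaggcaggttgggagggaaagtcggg
SREBF1: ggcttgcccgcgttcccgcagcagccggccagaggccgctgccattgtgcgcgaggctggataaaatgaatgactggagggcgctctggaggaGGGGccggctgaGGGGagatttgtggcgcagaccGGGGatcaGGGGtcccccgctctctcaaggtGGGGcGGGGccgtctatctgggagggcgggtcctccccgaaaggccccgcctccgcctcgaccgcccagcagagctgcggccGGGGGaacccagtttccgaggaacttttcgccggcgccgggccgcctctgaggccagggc
PITPNA: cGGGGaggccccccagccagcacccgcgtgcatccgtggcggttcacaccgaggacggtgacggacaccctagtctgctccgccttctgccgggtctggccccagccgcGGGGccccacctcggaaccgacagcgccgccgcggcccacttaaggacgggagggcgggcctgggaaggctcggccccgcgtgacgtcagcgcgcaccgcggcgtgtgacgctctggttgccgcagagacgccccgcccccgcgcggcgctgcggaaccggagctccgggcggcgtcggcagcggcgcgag
NDEL1: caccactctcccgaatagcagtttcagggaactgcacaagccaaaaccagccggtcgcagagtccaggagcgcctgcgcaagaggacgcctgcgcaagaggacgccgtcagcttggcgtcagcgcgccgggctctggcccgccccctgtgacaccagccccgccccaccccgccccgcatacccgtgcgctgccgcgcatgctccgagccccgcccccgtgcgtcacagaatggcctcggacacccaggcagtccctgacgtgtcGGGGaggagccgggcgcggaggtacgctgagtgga
AP2B1: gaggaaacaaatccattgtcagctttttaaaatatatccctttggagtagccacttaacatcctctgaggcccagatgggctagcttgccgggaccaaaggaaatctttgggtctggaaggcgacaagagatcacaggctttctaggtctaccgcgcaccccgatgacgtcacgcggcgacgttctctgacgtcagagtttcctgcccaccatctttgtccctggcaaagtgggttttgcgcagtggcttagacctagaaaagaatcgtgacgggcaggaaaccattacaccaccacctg
The summits lay past the last printed base in every list, except the siREXO4 summit of PITPNA. These windows hold 2, 7, 2, 1 and 0 such runs in the order printed. The G over C skew, (G − C)/(G + C), of the 50 transcribed bases was 0.733 for HEXIM1, 0.0286 for SREBF1, 0.190 for PITPNA, 0.371 for NDEL1 and -0.120 for AP2B1. The leading start sites thus differed widely in sequence, and AP2B1 had more C than G there.

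Hybrid peaks also covered hairpins of 3 microRNA genes whose mature sequences are given with the seed, bases 2 to 8, in capitals. They are shown because miR-132-3p and miR-212-3p share a seed and lie beside each other under 1 siRNaseH1 peak. On GRCh38.p14, miR-132-3p is chr17:2049929-2049950 on the minus strand, miR-212-3p is chr17:2050290-2050310 on the minus strand and miR-423-5p is chr17:30117095-30117117 on the plus strand.
miR-132-3p: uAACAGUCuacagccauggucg
miR-212-3p: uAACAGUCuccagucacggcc
miR-423-5p: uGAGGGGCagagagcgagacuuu
Fold enrichment is the authors' value at a summit over the local background of the same list, and folds from separately called lists are set side by side without a comparison. The MIR132 hairpin lay under a siREXO4 peak of fold 5.79 and a siRNaseH1 peak of fold 9.44, while the MIR212 hairpin lay under that siRNaseH1 peak and no other. The MIR423 hairpin lay under a siREXO4 peak of fold 7.89 and a siRNaseH1 peak of fold 7.49. None of the 3 lay under a siCtrl peak, and of all 95 hairpins on chromosome 17, peaks covered 4 in siREXO4, 6 in siRNaseH1 and 0 in siCtrl. The peaks say nothing of the microRNA itself, since the assay was aimed at DNA-RNA hybrids.

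Chromosome 17 was rich in peaks in every list. There were 11.3 peaks per Mb in siREXO4 (exact Poisson 95% interval 10.6 to 12.0), 15.6 in siRNaseH1 (14.8 to 16.5) and 4.31 in siCtrl (3.88 to 4.78), against 4.34, 7.17 and 1.53 over all 23 chromosomes in the same order of lists. It ranked 2 of 23 in both knockdown lists and 1 in siCtrl, and it ranked 2 for protein-coding genes per Mb. Per 100 protein-coding genes it held 80.0 siREXO4 peaks (63.5 over all chromosomes), 110.9 siRNaseH1 peaks (104.9) and 30.6 siCtrl peaks (22.3), which are ranks 4, 7 and 4. Counted per gene, chromosome 17 thus stood lower in each list than per Mb.

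The local background, which is the number of fragments the caller expected at a summit, moved with this. Its median on chromosome 17 was 2.46 fragments in siREXO4, 2.84 in siRNaseH1 and 2.36 in siCtrl, against 2.01, 2.17 and 1.67 over all chromosomes, and it was the highest of the 23 in each list. The part of this background in the number of peaks was not tested.

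**Figure D1:**
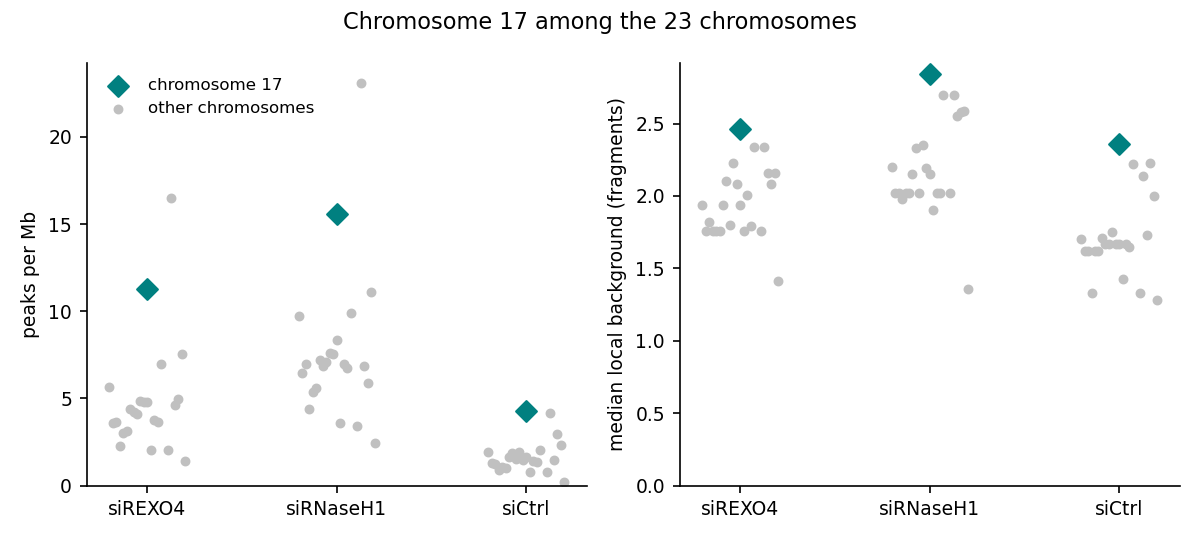
Peaks per Mb (left) and median local background at summits in fragments (right) for each of the 23 chromosomes, by list; the diamond is chromosome 17 and each grey point another chromosome. Chromosome 17 stands at 11.3, 15.6 and 4.31 peaks per Mb in siREXO4, siRNaseH1 and siCtrl, and it has the highest median background in each list.

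Peaks were unevenly spread along the chromosome. Over 84 windows of 1 Mb, a window held a median of 9 siREXO4, 14 siRNaseH1 and 3 siCtrl peaks. The 10 fullest windows of each list held 34.9% of siREXO4, 30.9% of siRNaseH1 and 39.1% of siCtrl peaks. The fullest siREXO4 window was 81-82 Mb with 45 peaks, the fullest siRNaseH1 window was 7-8 Mb with 56, and the fullest siCtrl window was 43-44 Mb with 22. No siREXO4 peak lay in 6 windows, no siRNaseH1 peak in 10 and no siCtrl peak in 12. Peak and gene numbers went together over windows, with a Spearman correlation of 0.738 for siREXO4, 0.756 for siRNaseH1 and 0.648 for siCtrl (84 windows, which share libraries and neighbours, so a description only).

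**Figure D2:**
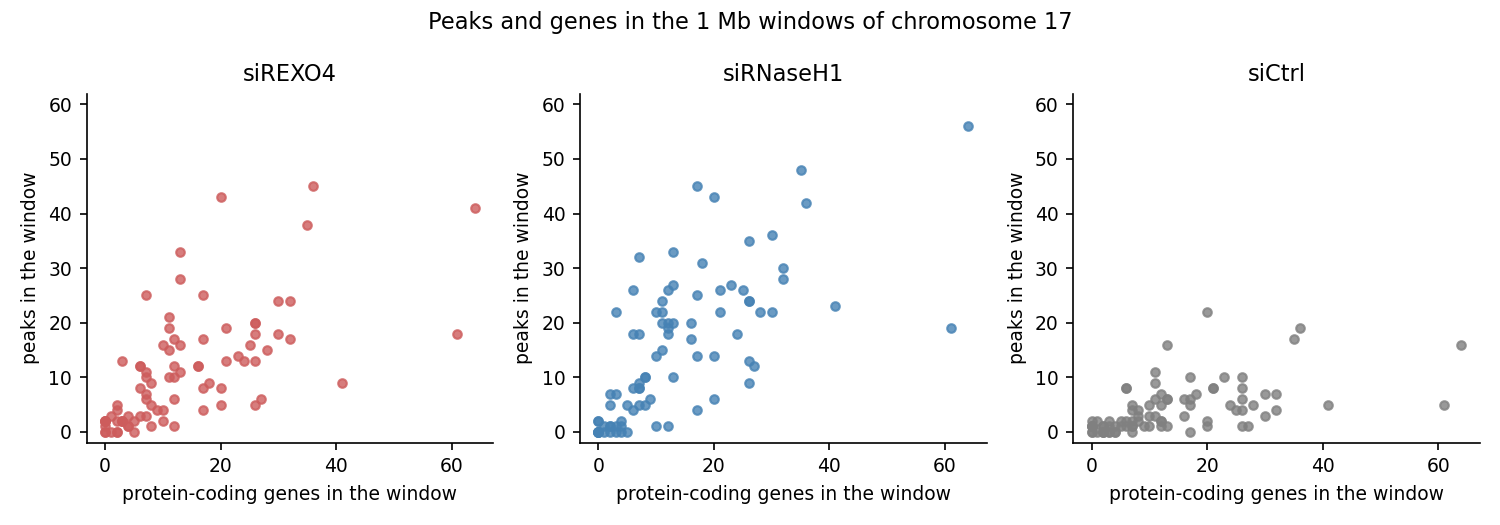
Peaks (vertical axis) against protein-coding genes (horizontal axis) in each 1 Mb window of chromosome 17, 1 panel per list. Windows with more genes held more peaks, up to 45 in siREXO4, 56 in siRNaseH1 and 22 in siCtrl.

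The peaks of window 43-44 Mb lay mostly at the U2 small nuclear RNA array, the tandem genes for the U2 RNA of the spliceosome, where RNU2-1 starts at 43233790 and 13 small nuclear RNA genes are annotated in 100 kb. The array held 25 siREXO4, 22 siRNaseH1 and 16 siCtrl peaks, and 15 of the 16 siCtrl peaks were in all 3 lists. The median local background there was 8.02 fragments in siREXO4, 10.9 in siRNaseH1 and 10.5 in siCtrl. The copies are nearly identical, so the peak at any one copy is uncertain.

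Most knockdown peaks had no siCtrl peak at the same place, and the 2 knockdowns shared many of these. Such a peak is called gained here when no siCtrl peak overlaps it by 1 bp or more. In siREXO4, 750 of 935 peaks were gained (80.2%, Wilson 95% interval 77.5 to 82.6; 85.5% over all chromosomes), and in siRNaseH1, 1112 of 1297 (85.7%, 83.7 to 87.5; 90.3% over all chromosomes). Of the siREXO4 gained peaks, 366 of 750 (48.8%, 45.2 to 52.4) overlapped a siRNaseH1 gained peak, beside 48.9% over all chromosomes, so the share was that of the whole list. From the other side, 366 of 1112 siRNaseH1 gained peaks (32.9%, 30.2 to 35.7) overlapped a siREXO4 gained peak, beside 28.0% over all chromosomes.

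Sharing was most frequent among the strongest peaks, on chromosome 17 as over all chromosomes. With the gained peaks of each list split by fold at its quartiles, from the lowest to the highest, 30.9%, 37.2%, 44.9% and 82.4% of siREXO4 gained peaks were shared with siRNaseH1, and 20.9%, 18.0%, 26.6% and 66.2% of siRNaseH1 gained peaks were shared with siREXO4. Over all chromosomes the same steps were 33.4%, 37.2%, 44.3% and 80.7% in siREXO4. They were 17.3%, 18.0%, 23.6% and 53.1% in siRNaseH1. Gained peaks present in both lists had a median fold of 5.38 in siREXO4 and 6.22 in siRNaseH1 (5.40 and 6.17 over all chromosomes). Gained peaks of 1 knockdown had medians of 4.26 in siREXO4 and 4.59 in siRNaseH1 (4.55 and 4.86 over all chromosomes).

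Among siCtrl peaks, 140 of 358 (39.1%, 34.2 to 44.3) were in neither knockdown list, beside 45.8% over all chromosomes, and 159 (44.4%) were in all 3 lists, beside 33.7%. Joining overlapping peaks gave 1822 regions on chromosome 17. Of these, 379 were siREXO4 only, 740 siRNaseH1 only, 354 in both knockdowns only, 153 in all 3, 26 in siREXO4 and siCtrl, 30 in siRNaseH1 and siCtrl, and 140 siCtrl only. The regions in all 3 lists were 8.40% on chromosome 17 (7.21 to 9.76) and 4.90% on the other chromosomes (4.65 to 5.17). The siRNaseH1-only regions were 40.6% on chromosome 17 (38.4 to 42.9) and 48.0% on the others (47.4 to 48.6). Without the U2 array, 144 of 342 siCtrl peaks were in all 3 lists (42.1%, 37.0 to 47.4).

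**Figure D3:**
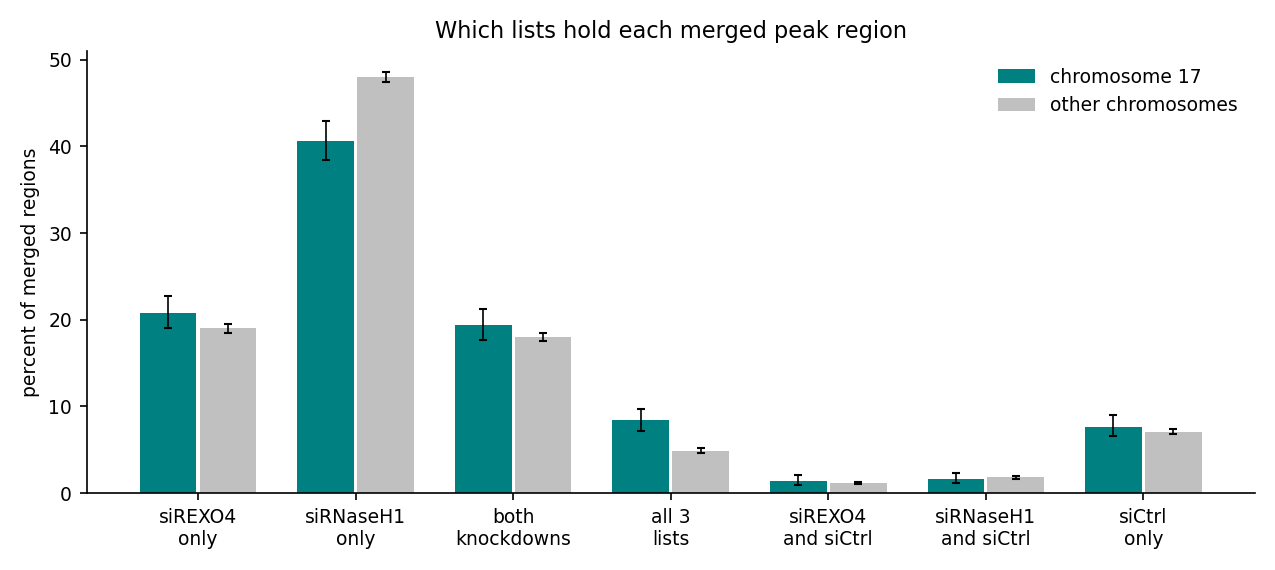
Percent of merged peak regions held by each combination of lists, for chromosome 17 and for the other chromosomes, with Wilson 95% intervals (counting error only). Regions in all 3 lists make up 8.40% on chromosome 17 and 4.90% elsewhere, and siRNaseH1-only regions 40.6% and 48.0%.

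Peaks gained in both knockdowns lay at start sites far more often than peaks of the siCtrl list alone. A summit was within 2 kb of an annotated start site for 166 of 366 siREXO4 peaks gained in both (45.4%, 40.3 to 50.5), for 63 of 384 gained with siREXO4 alone (16.4%, 13.0 to 20.4) and for 87 of 746 gained with siRNaseH1 alone (11.7%, 9.55 to 14.2). It was so for 7 of 140 siCtrl-only peaks (5.00%, 2.44 to 9.96) and for 55 of 159 siCtrl peaks in all 3 lists (34.6%, 27.6 to 42.3). Peaks gained with siRNaseH1 alone lay mainly inside genes, 504 of 746 (67.6%, 64.1 to 70.8), and siCtrl-only peaks lay between genes in 45 of 140 (32.1%, 25.0 to 40.3). The same classes on the other chromosomes, leaving out chromosome 8, gave 48.0% for siREXO4 peaks gained in both and 3.18% for siCtrl-only peaks at start sites. Peaks gained with siREXO4 alone were there in 17.4% and those gained with siRNaseH1 alone in 9.81%. Inside genes lay 66.0% of peaks gained with siRNaseH1 alone, and between genes 33.2% of siCtrl-only peaks. The chromosome 17 shares were thus near those of the other chromosomes.

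Summits sat on the transcribed side of the start site. Of the 153 siREXO4 peaks gained in both within 2 kb of a protein-coding start site, 124 were downstream of it (81.0%, 74.1 to 86.5), with a median of 168 bp and quartiles of 60.0 and 317 bp. The siRNaseH1 peaks at these loci had a median of 154 bp. Of all siCtrl peaks near a start site, 41 of 59 were downstream (69.5%, 56.9 to 79.7).

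**Figure D4:**
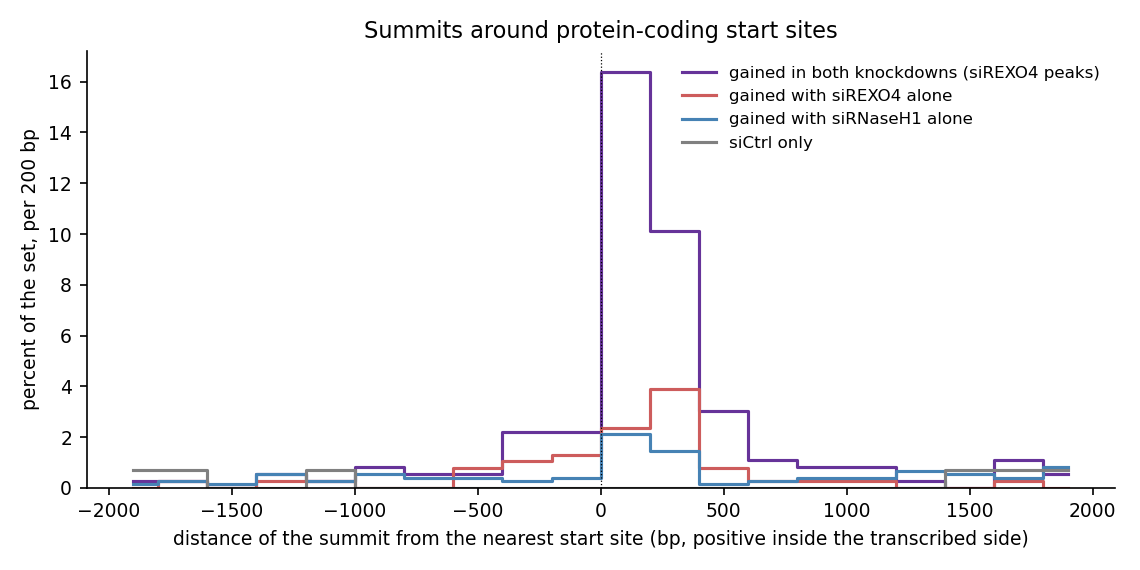
Percent of each set of chromosome 17 peaks whose summit falls in each 200 bp step from the nearest protein-coding start site, positive on the transcribed side. Peaks gained in both knockdowns gather in the first steps after the site, 60 of 366 in the first 200 bp and 37 in the next, while no siCtrl-only summit fell there.

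Promoters under knockdown peaks had a higher median G+C content than promoters as a whole, 67.0% in siREXO4 (quartiles 60.9% and 73.3%) and 67.0% in siRNaseH1. The 28 promoters under a siCtrl peak (quartiles 60.5% and 70.8%) all had a knockdown peak too, so they are a small part of the same promoters and not a contrasting set. The outermost start site was used for 824 of 1169 protein-coding genes with an entry in the RefSeq promoter table. The 300-base window overlapped a peak at 180 genes in siREXO4, 175 in siRNaseH1 and 28 in siCtrl, and 610 had none. A siCtrl peak without a knockdown peak was found at 0 of them. The median G+C content was 67.7% for the 107 promoters gained in both, 63.0% for the 28 with a siCtrl peak and 61.8% for the 610 without a peak. It was 63.3% for all 824. Promoters with a peak in siREXO4 alone had 71.2% (38 promoters) and those in siRNaseH1 alone 69.3% (34 promoters). In the 50 transcribed bases, the median skew was 0.154 for those gained in both, 0.211 with a siCtrl peak and 0.0625 without a peak. The motif GGGG, searched on the gene's strand in those 50 bases, was in 42.1% of the promoters gained in both (33.1 to 51.5), 17.9% of those with a siCtrl peak (7.88 to 35.6), 26.9% of those without a peak (23.5 to 30.5) and 28.9% of all 824. The motif CCCC, its other strand, was in 13.1%, 17.9%, 21.0% and 20.0% of the same sets. Over the whole 300 bases GGGG was in 84.1% of the promoters gained in both and 85.1% of all, so that window did not separate them. Both motifs were chosen with the peaks known, and a match is a description of letters.

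Among loci held in all 3 lists, the highest siCtrl folds lay at HEXIM1, EIF4A1 and the end of TEX2. HEXIM1, an inhibitor of the elongation factor P-TEFb, had peaks of fold 176.6 in siREXO4, 164.2 in siRNaseH1 and 41.0 in siCtrl. Their summits lay 140, 162 and 128 bp after the start site of the sequence printed above. EIF4A1, the RNA helicase of translation initiation, had folds of 67.1 in siREXO4, 210.5 in siRNaseH1 and 31.4 in siCtrl, in a locus that also touches SENP3, a SUMO protease gene. It was the highest siRNaseH1 fold on the chromosome, as HEXIM1 was the highest siREXO4 and siCtrl one.

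SREBF1, a transcription factor of sterol and fatty acid synthesis, had folds of 78.1 in siREXO4, 62.2 in siRNaseH1 and 13.9 in siCtrl, with summits 419, 396 and 370 bp after its start site. The translation factor gene EIF5A had folds of 24.8 in siREXO4, 56.9 in siRNaseH1 and 11.9 in siCtrl. EIF1, which helps choose the start codon, had folds of 9.53 in siREXO4, 14.7 in siRNaseH1 and 11.5 in siCtrl near its gene end. ACTG1, a cytoplasmic actin, had folds of 32.0 in siREXO4, 73.7 in siRNaseH1 and 10.7 in siCtrl. DCAKD, named for a dephospho-CoA kinase domain, had folds of 18.8 in siREXO4, 30.4 in siRNaseH1 and 11.5 in siCtrl. The peak given to TEX2 (45.0 in siREXO4, 62.9 in siRNaseH1, 16.9 in siCtrl) covers SNHG25, a small nucleolar RNA host gene, and SNORD104 within it.

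Other noncoding genes, picked after their values were seen, were held in all 3 lists. The host gene MIR22HG had folds of 30.3 in siREXO4, 33.7 in siRNaseH1 and 6.87 in siCtrl. TOB1-AS1 had 41.7 in siREXO4, 52.8 in siRNaseH1 and 3.84 in siCtrl. Within 2 kb of MIR21 the highest folds were 16.7 in siREXO4, 27.5 in siRNaseH1 and 8.96 in siCtrl, though no peak covered its hairpin. Of 53 small nucleolar RNA genes, 16 held a siREXO4 peak, 23 a siRNaseH1 peak and 10 a siCtrl peak, and 0 held a siCtrl-only peak. These are 30.2%, 43.4% and 18.9%, beside 41.4%, 42.0% and 17.5% of protein-coding genes of the chromosome in the same order of lists.

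**Figure D5:**
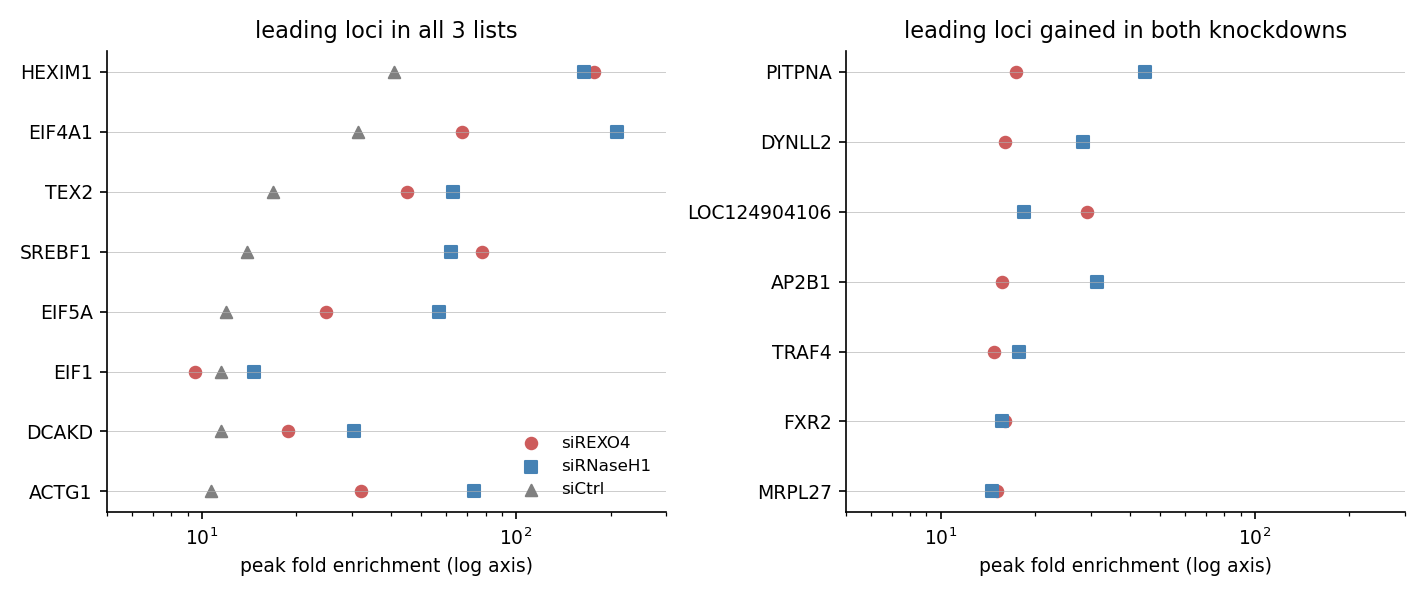
Fold enrichment (log axis) of the peaks at the leading loci of chromosome 17, by list; left, loci in all 3 lists ranked by siCtrl fold; right, loci gained in both knockdowns, which have no siCtrl point. On the left HEXIM1 has the highest siREXO4 and siCtrl folds, 176.6 and 41.0, and on the right, ordered by the lower of the ranks in both lists and with 1 locus left out, LOC124904106 has the highest siREXO4 fold, 29.3, and PITPNA the highest siRNaseH1 fold, 44.7.

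Loci gained in both knockdowns reached 297 of 1169 protein-coding genes (25.4%; 20.8% of genes on all chromosomes), counting a locus in the gene or within 2 kb of it. PITPNA, a phosphatidylinositol transfer protein gene, came first when each locus was ranked by the lower of its ranks in the 2 lists, with folds of 17.3 in siREXO4 and 44.7 in siRNaseH1 and summits 44 and 91 bp after its start site. DYNLL2, a dynein light chain gene, had folds of 16.0 in siREXO4 and 28.4 in siRNaseH1. The locus named for LOC124904106 lies over KDM6B, a histone H3K27 demethylase gene, and had folds of 29.3 in siREXO4 and 18.4 in siRNaseH1. It was the highest siREXO4 fold among gained loci, and KDM6B held the most gained sequence in siREXO4, 6992 bp in 3 loci.

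AP2B1, a clathrin adaptor subunit gene, had folds of 15.7 in siREXO4 and 31.5 in siRNaseH1, with summits 248 and 384 bp after the start site printed above. NDEL1, a dynein regulator gene, had 14.5 in siREXO4 and 33.3 in siRNaseH1, at 172 and 178 bp. TRAF4, a signalling adaptor gene, had 14.8 in siREXO4 and 17.7 in siRNaseH1. FXR2, a paralogue of the fragile X RNA-binding protein, had 16.0 in siREXO4 and 15.6 in siRNaseH1. MRPL27, a mitochondrial ribosomal protein gene, shares 1 locus with its neighbour EME1, a partner of the MUS81 nuclease, at 15.1 in siREXO4 and 14.5 in siRNaseH1.

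Further leaders of the siREXO4 gained set, all also in siRNaseH1, were GGNBP2 (17.8 in siREXO4, 7.13 in siRNaseH1), CLUH, which binds mRNAs of mitochondrial proteins (16.3 and 9.89 in the same order), and the transcription factor gene SP2 (15.8 and 10.1). Further leaders of the siRNaseH1 gained set, also in siREXO4, were the Rab regulator gene TBC1D16 (11.8 in siREXO4, 25.9 in siRNaseH1), FASN, the fatty acid synthase (6.86 and 19.5), and ALYREF, an mRNA export adaptor (9.40 and 18.7). NUFIP2, an RNA-binding protein gene, had 7.63 in siREXO4 and 21.2 in siRNaseH1. It also held the most siRNaseH1 gained sequence, 9155 bp in 14 loci. LRRC37A2 held 6626 bp of siRNaseH1 gained sequence in 12 loci with a highest fold of 7.94. Its annotated span is 676.3 kb, against 38.3 kb for NUFIP2, and covers other genes with siRNaseH1 gained peaks, such as GOSR2-DT. LRRC37A2 also belongs to a family of near copies, so its peaks are uncertain.

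Peaks of a single list were weak in all 3 lists. Those gained with siREXO4 alone had a median fold of 4.26, those gained with siRNaseH1 alone 4.59 and siCtrl-only peaks 4.39. Over all chromosomes these medians were 4.55, 4.86 and 4.72. A fold of 10 was reached by 3 of 384 peaks gained with siREXO4 alone, 11 of 746 gained with siRNaseH1 alone and 0 of 140 siCtrl-only peaks. Over all chromosomes it was reached by 30 of 5547, 207 of 13612 and 0 of 2041, so weak single-list peaks were not particular to chromosome 17. The siCtrl-only peaks had a highest fold of 6.83 and a median fragment number at the summit of 13. From a siCtrl-only peak the nearest knockdown peak lay a median of 15518 bp away, over 10 kb away for 86 of 140 and within 1 kb for 12. The siCtrl-only peaks reached 76 of 1169 protein-coding genes (6.50%; 5.34% over all chromosomes). The highest folds were 6.83 in UBE2G1, a ubiquitin-conjugating enzyme gene, 6.0 in TTC19, a respiratory chain assembly factor gene that overlaps NCOR1, 6.0 in MRPL58 and 5.95 in ADORA2B, an adenosine receptor gene. Next came TBC1D3D with 5.75 and LOC101060212 with 5.71, then SEPTIN4 with 5.52 and TMEM220 with 5.27. TBC1D3D is a member of a multicopy family, so its peak is uncertain.

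These siCtrl-only peaks were thinly spread over windows. Of 84 windows 29 held 0, 18 held 1, 15 held 2, 8 held 3, 6 held 4, 5 held 5, 2 held 6 and 1 held 7. The window with 7 was 75-76 Mb, which also held 38 siREXO4 and 48 siRNaseH1 peaks, 17 siCtrl peaks in all and 35 protein-coding genes. It was among the 4 fullest windows of every list. Of its siCtrl peaks 41.2% were siCtrl only, near the 39.1% of the whole chromosome and the 45.8% over all chromosomes. Its siCtrl-only peaks had folds of 6.0 in MRPL58, 5.25 in KCTD2, 4.50 in SAP30BP, 4.44 in GRB2, a growth factor receptor adaptor gene, and 4.09 in TEN1, a telomere CST complex gene, and 5.83 and 3.92 between genes. Each rested on 13 to 22 fragments. The one in SAP30BP lay 490 bp from a siRNaseH1 peak and the one in MRPL58 lay 1638 bp from a siREXO4 peak.

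The windows with 6 were 59-60 Mb and 62-63 Mb. In 59-60 Mb the siCtrl-only peaks lay in VMP1, an autophagy gene (4.87 and 3.97), in DHX40, a helicase-family gene (4.57), in RPS6KB1, the S6 kinase (4.31), in GDPD1 (3.94), and 1 between genes (4.52), among 33 siREXO4, 33 siRNaseH1 and 16 siCtrl peaks in all. In 62-63 Mb, 1 lay in the kinase gene TLK2 (4.35) and 5 between genes, and the window held 12 siREXO4, 26 siRNaseH1 and 8 siCtrl peaks. Of those 8 siCtrl peaks, 6 were thus in neither knockdown list.

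Over the 8 windows with 5 or more siCtrl-only peaks, 46.8% of siCtrl peaks were siCtrl only (37.0 to 56.8), and 36.4% in the other 76 windows (30.8 to 42.3). These windows were picked for their counts, so this is a description. Their median local background was 2.73 fragments in siREXO4, 3.37 in siRNaseH1 and 2.67 in siCtrl, against 2.38, 2.70 and 2.22 in the other windows, and its part in the counts was not tested. With borders moved by 0.5 Mb, 15.5-16.5, 59.5-60.5 and 75.5-76.5 Mb each held 7, so 75-76 Mb led only with borders at whole Mb.

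All 6 ribosomal protein genes of the chromosome held a peak in every list, beside 41.4% of its protein-coding genes in siREXO4 (33.7% over all chromosomes) and 42.0% in siRNaseH1 (39.2%). RPL38 led with 17.5 in siREXO4, 36.0 in siRNaseH1 and 7.38 in siCtrl, and RPL19 had 16.3, 24.3 and 5.35 and RPL23A 14.4, 19.1 and 6.22 in the same order. RPL23 had 6.34 in siREXO4 and the lowest folds of the 6 in siRNaseH1 and siCtrl, 6.50 and 4.52. Gained peaks were in 3 of 6 in siREXO4, beside 37.6% of all protein-coding genes of chromosome 17 (31.3% over all chromosomes), and in 6 of 6 in siRNaseH1, beside 39.5% (37.6%). The siCtrl list held 17.5% of all such genes (12.0% over all chromosomes). The median of the highest gained fold was 3.54 in siREXO4 and 6.23 in siRNaseH1 for these genes, beside 5.48 and 5.93 over all chromosome 17 genes with such a locus.

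Of 29 genes of RNA processing and translation, 23 held a siREXO4 gained peak (median 5.57), 23 a siRNaseH1 gained peak (median 6.40) and 18 a locus gained in both, and 17 held a siCtrl peak. These are 79.3%, 79.3%, 62.1% and 58.6%, beside 37.6%, 39.5%, 25.4% and 17.5% of all protein-coding genes of the chromosome. POLR2A, the largest subunit of RNA polymerase II, held 6 siREXO4 peaks up to 12.1, 14 siRNaseH1 peaks up to 21.7 and 6 siCtrl peaks up to 7.50, and was singled out after its values were seen. Beside MRPL27 and ALYREF, given above, DDX42, an RNA helicase gene, had 12.7 in siREXO4, 12.6 in siRNaseH1 and 6.16 in siCtrl, with a separate locus gained in both. SUPT4H1, an elongation factor subunit gene, had 8.14 in siREXO4 and 9.10 in siRNaseH1 and no siCtrl peak. Of 6 small nucleolar RNA host genes, 4 held a gained peak in each knockdown and 3 a siCtrl peak.

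A list of 24 genes was drawn up for DNA repair and R-loop control, though some, such as RNF43 and BPTF, have other roles. Of the 24 genes, 17 held a siREXO4 gained peak (median 5.11) and 16 a siRNaseH1 gained peak (median 6.43). A locus gained in both was in 9, and 4 held a siCtrl peak. The shares were 70.8%, 66.7%, 37.5% and 16.7%, beside 37.6%, 39.5%, 25.4% and 17.5% of all protein-coding genes, whose gained medians were 5.48 in siREXO4 and 5.93 in siRNaseH1. Next to EME1, given above, BRCA1 had 9.08 in siREXO4 and 12.5 in siRNaseH1 without a siCtrl peak. These folds belong to loci also held by the noncoding genes LOC101929767 and LOC124900391, at 1 end of the long annotated BRCA1 span. At NBR2, a noncoding gene farther inside that span, the highest folds were 6.58 in siREXO4 and 8.56 in siRNaseH1. RNF43, a ubiquitin ligase gene, had 8.14 in siREXO4 and 9.10 in siRNaseH1 without a siCtrl peak, at a locus it has in common with its neighbour SUPT4H1. The chromatin remodeller gene BPTF had gained loci up to 13.3 in siREXO4 and 9.72 in siRNaseH1, and siCtrl peaks up to 3.31 elsewhere in the gene.

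Of 20 early response and chromatin genes, 12 held a siREXO4 gained peak, 11 a siRNaseH1 gained peak and 10 a locus gained in both (60.0%, 55.0% and 50.0%, beside 37.6%, 39.5% and 25.4% of all protein-coding genes), and 6 held a siCtrl peak. The clock gene PER1 had gained peaks up to 15.1 in siREXO4 and 8.48 in siRNaseH1, and a siCtrl peak of 4.69 at another locus. The clock gene NR1D1 had 13.0 in siREXO4 and 7.82 in siRNaseH1 without a siCtrl peak. MAFG, a small MAF transcription factor gene, had 12.0 in siREXO4, 11.7 in siRNaseH1 and 4.63 in siCtrl. Of 13 genes listed for cytoskeleton and adhesion, which include the keratin gene KRT17, 9 held a siREXO4 gained peak and 8 a siRNaseH1 gained peak. A locus gained in both was in 5, and 3 held a siCtrl peak. The shares were 69.2%, 61.5%, 38.5% and 23.1%, beside 37.6%, 39.5%, 25.4% and 17.5% of all protein-coding genes. SEPTIN9, a septin cytoskeleton gene, was among the 13 with 5 siREXO4 peaks up to 8.03 and 12 siRNaseH1 peaks up to 5.67. TIMP2, an inhibitor of metalloproteinases, had a locus gained in both with 9.99 in siREXO4 and 5.10 in siRNaseH1, and a siCtrl-only peak of 3.69 elsewhere.

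Clusters of genes used by other tissues held few peaks. Of 88 genes with keratin or keratin-associated symbols, 5 held a siREXO4 peak, 4 a siRNaseH1 peak and 1 a siCtrl peak. The 88 include pseudogenes such as KRT16P1 and the noncoding KRT10-AS1, which has the same folds as KRT10. The shares are 5.68%, 4.55% and 1.14%, beside 41.4%, 42.0% and 17.5% of all protein-coding genes of the chromosome. Pseudogenes of the chromosome held peaks in 5.25%, 7.13% and 3.38%. Skeletal muscle myosins (6 genes), chemokines (14), olfactory receptors (20) and single markers of other tissues (9) held 0 peaks in any list. Of 8 genes of the CD300 family and CD79B, which leukocytes use, CD300A alone held peaks, of 4.33 in siREXO4 and 3.94 in siCtrl. Of 10 HOXB genes, which pattern the body axis, HOXB6 (6.01 in siREXO4, 8.00 in siRNaseH1) and HOXB9 (3.99 and up to 6.46) held gained loci in both knockdowns and 0 held a siCtrl peak. That is 20.0% with a locus gained in both, near the 25.4% of all protein-coding genes of the chromosome, of which 17.5% held a siCtrl peak.

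Of 11 genes around ERBB2, a growth factor receptor gene, 4 held a siREXO4 gained peak (36.4%), 3 a siRNaseH1 gained peak (27.3%) and 1 a siCtrl peak (9.09%), beside 37.6%, 39.5% and 17.5% of all protein-coding genes of the chromosome. CDK12, a kinase of RNA polymerase II, had 26.3 in siREXO4, 24.5 in siRNaseH1 and 5.90 in siCtrl. MED1, a Mediator subunit gene, had 4.94 in siREXO4 and 9.76 in siRNaseH1 without a siCtrl peak. ERBB2 itself held a siRNaseH1 peak of 4.59 and none in siREXO4 or siCtrl. RNA levels were not measured here, so peaks cannot be set against expression.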

How the data were processed

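The peaks and gene lists described here were chosen with earlier results of these data known. Per the labels' protocols, sonicated DNA was immunoprecipitated and libraries were made after second-strand synthesis. Tools in the submitters' processing notes, given without roles, were MACS2 2.1.0.20150731, deepTools 3.5.1, SAMtools 1.17, Cufflinks, HISAT2 2.2.1 and Trim Galore 0.6.10, with the build hg38. The control of each peak call is not given in the sources used here. Each list was called by the authors on merged libraries, so nothing has a replicate n. The deposited lists have 10 columns: the deposited fold enrichment (a ratio), −log10 p, −log10 q and score belong to each peak's summit, of which fold and −log10 p were used to describe and rank peaks. Read depth is unknown. Replicates, inputs and IgG were not analysed here.

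Fragments and local background at a summit were recovered from fold, (fragments + 1)/(background + 1), and the Poisson p-value, for the deposited −log10 p below 300. Overlap meant at least 1 bp. Windows of 1 Mb were assigned by summit. Genes and promoters came from RefSeq on GRCh38.p14, with the chromosome coordinates of hg38. A gene holds a peak that overlaps it or the 2 kb on either side. Summit classes were taken in the order start site, gene end, boundary of a gene with no strand in the table, inside a gene and between genes, and chromosome 8 was not used for them. Named genes were the 8 with the highest fold per set, the 3 with the most gained sequence, up to 6 in the windows richest in siCtrl-only peaks and up to 4 per list. LOC107984156, which the rule on gained sequence also names, shares the PITPNA locus. Values of 1 further named gene are left out. The printed sequences and ERBB2 were chosen outside this rule, with values known. Shares carry Wilson intervals and counts per Mb exact Poisson intervals, both 95%. SciPy 1.17.1, pandas 2.3.3, NumPy 2.4.6 and Matplotlib 3.10.9 ran under Python 3.11.15, and overlap and recovery were tested on simulated data. Alternatives were a fold of at least 5, lists of equal length, other overlap rules, shifted windows, other gene flanks and leaving out the U2 array.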

Additional observations from a re-analysis of the deposited data

Results flagged for a closer look

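Peaks on alternate and unplaced scaffolds named for chromosome 17 were used in no comparison, and both knockdown lists held more of them than siCtrl. There were 54 in siREXO4 and 95 in siRNaseH1, against 20 in siCtrl. That is 2.70 and 4.75 times the siCtrl number. The ratios were 2.61 and 3.62 on chromosome 17 itself, and 2.85 and 4.70 over chromosomes 1 to 22 and X. The siREXO4 ratio of the scaffolds was thus near both. Their siRNaseH1 ratio was near that of all chromosomes and above that of chromosome 17. The fullest scaffold held 17 siREXO4 and 47 siRNaseH1 peaks. How reads that match both a scaffold and the chromosome were assigned is not given in the sources used here.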

How the results depend on the processing

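No paired analysis was possible because each list merges the replicates of its group. Of 26 alternative values, 18 stayed within 1.5 times of the value reported. With a fold of at least 5 in every list, gained peaks were 355 of 432 in siREXO4 (82.2%) and 581 of 666 in siRNaseH1 (87.2%), 213 of 355 siREXO4 gained peaks were shared (60.0%), 39 of 133 siCtrl peaks were siCtrl only (29.3%) and the richest window held 3, since fewer peaks remained. With each list limited to the 4458 peaks of lowest p-value, gained peaks were 254 of 386 in siREXO4 (65.8%) and 246 of 378 in siRNaseH1 (65.1%), 127 of 254 were shared (50.0%), and 196 of 358 siCtrl peaks were siCtrl only (54.7%). The share of gained peaks and of siCtrl-only peaks thus depends on how long the lists are. Overlap rules, the gene flank (248 genes gained in both without one, 341 with 5 kb) and leaving out the U2 array, an alternative chosen after seeing the data, moved no count by over 1.5 times. The 75-76 Mb window led alone with a fold of at least 5 and with equal lists, tied at 6 with 62-63 Mb when peaks up to 500 bp apart counted as shared, and, with borders moved by 0.5 Mb, 75.5-76.5 Mb held 7, as did 2 others. A siCtrl-only peak rested on a median of 13 fragments, and read depth, which could limit the overlap of weak peaks, is unknown.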
